A study of Rattus norvegicus with 6 samples.

Results

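Interferon response genes are the genes that cells switch on when they meet interferon or sense foreign nucleic acid, and 37 of them were followed here across 6 arrays of rat kidney inner medulla. They were chosen by symbol and divided by role into 5 sensors of RNA and DNA, 5 transcription factors, 24 antiviral effectors and 3 subunits of the immunoproteasome. A gene was used where the array annotation gave its probe set that symbol alone, and where several did, the brightest on average stood for it. This left 34 measured genes of 14168 in all, each with 1 probe set. They were all 5 sensors, all 5 transcription factors, 21 effectors and all 3 immunoproteasome subunits. Ifit1, Parp14 and Xaf1 are not analysed here. The list was drawn up after earlier results of these same arrays, low levels under dDAVP and higher ones after withdrawal, were known, so those differences are described below and are not independent evidence of that direction.

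The study asked which transcripts of the inner medulla differ during long vasopressin stimulation and shortly after it ends. dDAVP (desmopressin) is a synthetic vasopressin analog that acts on the V2 receptor of collecting duct principal cells. All rats were male Sprague-Dawley animals of 200 to 250 g, kept in metabolic cages on a fixed ration with free access to water, and each carried a minipump under the skin of the neck. Vehicle rats were infused with saline at 1 µl/h for 5 d, and dDAVP rats with the hormone analog at 40 ng/h for 5 d. The withdrawal group received the same dDAVP infusion, after which the pump was taken out under light enflurane anaesthesia and the rats were kept in their cages for 3 h. The pump removal with its anaesthesia is described for the withdrawal group alone, so it cannot be told apart from the end of the infusion. Each group had 2 arrays, hybridised from 300 ng of total RNA each. The labels do not state whether replicate arrays came from different rats, so p-values measure only how far these arrays differed, which may be technical.

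In textbook terms, sensors such as MDA5 and RIG-I detect viral RNA in the cytoplasm and lead to the production of type I interferon. Interferon then acts through its receptor and the JAK kinases to form ISGF3, a complex that includes STAT2 and IRF9, which binds the interferon-stimulated response element (ISRE) in the promoters of effector genes. IRF7 amplifies type I interferon, while interferon gamma acts on the gamma-activated site (GAS) and induces IRF1, guanylate-binding proteins and the immunoproteasome. The kidney medulla holds resident macrophages and dendritic cells beside its tubules, and epithelial cells respond to interferon as well.

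The arrays carried deposited intensities on a linear scale, of which the log2 is given throughout. Over all probe sets the median intensity was 182.1 and 174.6 in vehicle, 156.1 and 165.1 in dDAVP, and 181.8 and 181.1 in withdrawal. The median gene was accordingly lower by 0.11 log2 in dDAVP than in vehicle and higher by 0.14 log2 in withdrawal than in dDAVP. Every difference below is to be read with this shift in mind. It was not the same at all intensities, so these medians are no exact baseline for bright genes. Cyclic loess, which removes shifts between arrays by intensity, is given beside the deposited scale where it matters. In Zbp1 (vehicle mean 7.11 log2) it moved the difference of dDAVP against vehicle from -0.45 to -0.28 log2. In Isg15 (vehicle mean 11.67 log2) it moved it only from -0.52 to -0.50 log2. The principal cell markers Aqp2 (13.14 to 13.40 log2) and Avpr2 (11.04 to 11.71 log2) were present on every array, and 6 markers of the proximal tubule, a segment of the cortex and outer medulla, read 6.21 to 7.64 log2. Vehicle replicate 1 and dDAVP replicate 2 stood apart from the other arrays in 5 genes of proliferating cells, with summed intensities of 994 and 814 against 1777 to 2975 on the other 4 arrays. They were also the 2 lowest arrays in genes outside that list, among them Cd68, Slc14a2 and Cldn4. The main counts and medians are therefore also given without these 2 arrays.

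The promoters of the measured genes carried the letters of the ISRE more often than those of other genes. RefSeq promoter windows of assembly GRCr8, from 250 bases before the annotated start to 50 bases after it, were at hand for 26 of the 34 genes, and not for Rig1, Dhx58, Zbp1, Ifit2, Mx2, Oas2, Isg15 and Usp18. The ISRE core was searched as GAAANNGAAA on both strands and the GAS as TTCNNNGAA, which reads the same on both strands. The ISRE core stood in 15 of the 26 windows (57.7%), against 3.43% of the windows of 11679 measured genes and 3.92% of all 33469 windows. The GAS stood in 6 of the 26 windows (23.1%), against 7.64% of the windows of measured genes and 8.87% of all. Both elements were present in 3 genes, Bst2, Oas1a and Psmb8.

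The following stretches show the ISRE core of the 6 measured genes with this element whose group means lay furthest apart. The genes were chosen as interferon response genes, and this element is the textbook site through which interferon acts on effector genes. How often it was found is therefore not independent of the choice of genes. Each is the 250 bases directly before the annotated start, written 5′ to 3′ along the gene with the core in capitals. Ifit3, Isg20, Gbp5 and Rsad2 encode antiviral effectors, Ifih1 the sensor MDA5 and Irf7 a transcription factor. The core of Ifit3, Gbp5, Rsad2 and Irf7 lies on the opposite strand and so begins with TTTC here.
Ifit3, chr1:241527076-241527325 (plus strand, GRCr8): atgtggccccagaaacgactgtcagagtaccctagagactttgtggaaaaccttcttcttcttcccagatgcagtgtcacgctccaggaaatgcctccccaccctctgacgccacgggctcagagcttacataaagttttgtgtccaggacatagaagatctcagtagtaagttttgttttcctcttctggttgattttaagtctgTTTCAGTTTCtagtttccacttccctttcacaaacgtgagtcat
Isg20, chr1:142239809-142240058 (plus strand, GRCr8): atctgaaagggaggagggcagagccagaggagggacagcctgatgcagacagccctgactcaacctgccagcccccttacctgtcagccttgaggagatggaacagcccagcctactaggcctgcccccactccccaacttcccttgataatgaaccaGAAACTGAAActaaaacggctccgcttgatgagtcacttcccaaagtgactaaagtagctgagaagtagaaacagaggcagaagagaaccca
Ifih1, chr3:67683969-67684218 (minus strand, GRCr8): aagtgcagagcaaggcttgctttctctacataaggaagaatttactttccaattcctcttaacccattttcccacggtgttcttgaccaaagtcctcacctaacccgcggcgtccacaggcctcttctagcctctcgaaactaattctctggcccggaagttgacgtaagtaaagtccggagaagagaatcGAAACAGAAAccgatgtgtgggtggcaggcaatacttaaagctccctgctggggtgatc
Gbp5, chr2:233910749-233910998 (plus strand, GRCr8): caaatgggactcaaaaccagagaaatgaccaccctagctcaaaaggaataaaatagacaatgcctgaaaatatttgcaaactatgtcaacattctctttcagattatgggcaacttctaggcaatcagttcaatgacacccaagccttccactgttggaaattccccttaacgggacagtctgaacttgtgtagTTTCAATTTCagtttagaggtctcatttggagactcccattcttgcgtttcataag
Rsad2, chr6:48788121-48788370 (minus strand, GRCr8): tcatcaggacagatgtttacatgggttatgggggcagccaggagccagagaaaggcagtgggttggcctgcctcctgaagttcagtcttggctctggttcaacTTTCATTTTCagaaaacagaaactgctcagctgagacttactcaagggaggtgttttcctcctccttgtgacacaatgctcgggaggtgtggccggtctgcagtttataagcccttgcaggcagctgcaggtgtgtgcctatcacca
Irf7, chr1:205800024-205800273 (minus strand, GRCr8): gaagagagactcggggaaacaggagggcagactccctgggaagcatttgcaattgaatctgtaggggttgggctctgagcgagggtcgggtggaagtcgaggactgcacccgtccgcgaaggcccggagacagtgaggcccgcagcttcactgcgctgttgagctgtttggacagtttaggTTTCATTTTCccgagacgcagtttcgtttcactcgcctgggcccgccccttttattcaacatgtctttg

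Of the 20 ISRE core matches, 18 ended before the start and 14 of those lay within the 100 bases before it. The core of Ifit3 ended 35 bases before the start, that of Gbp5 47, that of Ifih1 50, that of Irf7 60, that of Isg20 83 and that of Rsad2 138 bases before it. There were 2 matches in each of Bst2, Ifi27, Ifi44, Oas1a and Psmb10, which overlapped each other in Bst2 and Oas1a, and in Bst2 1 match also overlapped the GAS. By role, the core was found in 2 of 2 sensors with a window, 1 of 5 transcription factors, 10 of 16 effectors and 2 of 3 immunoproteasome subunits. The GAS was found in 3 of the 5 transcription factors, Irf1, Irf8 and Irf9. The 15 genes with the ISRE core had a median difference of -0.30 log2 between dDAVP and vehicle and of 0.43 log2 between withdrawal and dDAVP. The 11 genes without it had medians of -0.30 and 0.31 log2. A match of these letters is a description of the window and says nothing about binding in this tissue, and a window without a match says nothing about the gene's control.

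**Figure D1:**
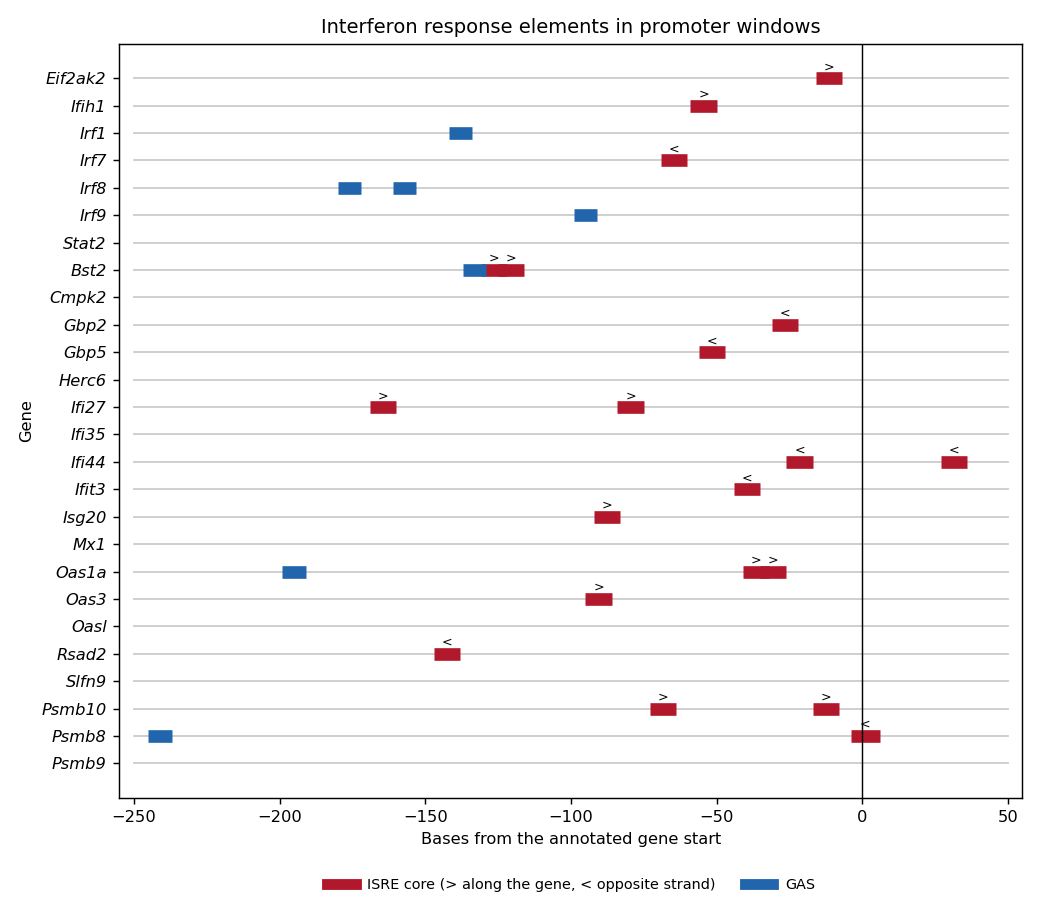
Positions of the ISRE core (red, arrowhead for the strand) and of the GAS (blue) in the promoter windows of 26 interferon response genes, in bases from the annotated start. Most cores lie in the last 100 bases before the start, and 15 of the 26 genes have at least 1.

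Of the genes measured, 22 of 34 had both dDAVP arrays below all 4 other arrays, a pattern seen in 33.6% of all genes. After cyclic loess it was seen in 19 of the 34 and in 8.21% of all genes. No gene of the list passed the test in any comparison, and no gene on the array did. The members' smallest Benjamini-Hochberg adjusted p from limma was 0.549 between dDAVP and vehicle, 0.26 between dDAVP and withdrawal, and 0.995 between vehicle and withdrawal. The differences that follow are therefore measured sizes with their standard errors (SE, from the limma model, n = 2 arrays a group) and not called changes. Comparisons with vehicle and with withdrawal share the same 2 dDAVP arrays, so a low value there enters both. In bulk tissue, fewer cells of a type and less RNA per cell cannot be told apart.

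**Figure D2:**
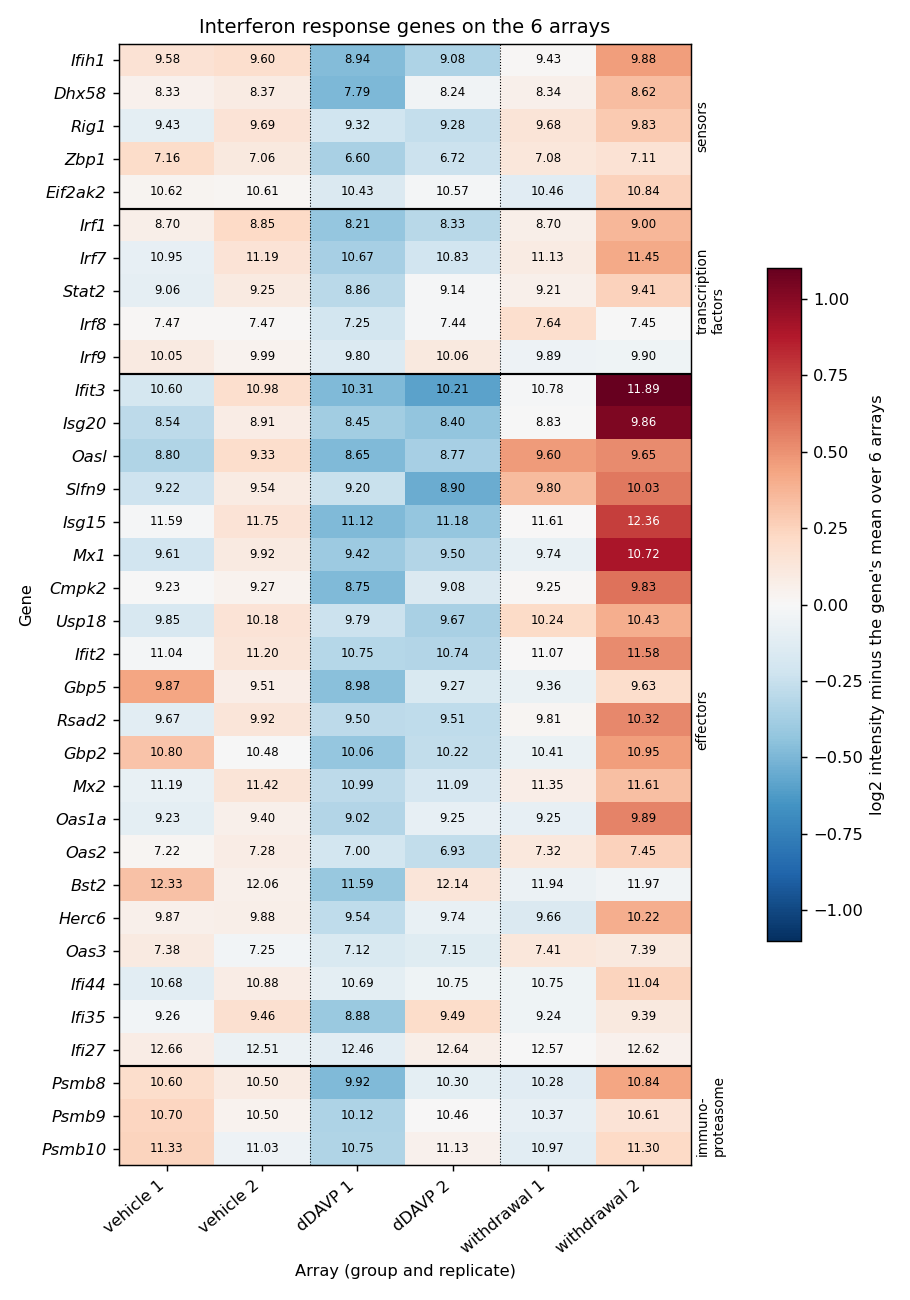
Log2 intensity of each measured interferon response gene (rows, by role) on each of the 6 arrays (columns), printed in the cells and coloured by its distance from the gene's own mean over the arrays. The dDAVP columns are mostly blue, withdrawal replicate 2 is mostly red, and Ifi27, Irf9 and Irf8 are nearly even.

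Among the sensors, Ifih1, which encodes the long double-stranded RNA sensor MDA5, stood furthest from vehicle. Its log2 intensity was 9.58 and 9.60 in vehicle, 8.94 and 9.08 in dDAVP, and 9.43 and 9.88 after withdrawal. Both dDAVP arrays were the lowest of the 6, and the vehicle arrays lay between the withdrawal arrays. The difference was -0.58 ± 0.16 log2 for dDAVP against vehicle and 0.64 ± 0.16 log2 (1.56-fold higher) for withdrawal against dDAVP. The second value was 0.42 without withdrawal replicate 2.

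Rig1, the label under which the array lists Ddx58 and thus RIG-I, the sensor of viral RNA ends, read 9.43 and 9.69 in vehicle, 9.32 and 9.28 in dDAVP, and 9.68 and 9.83 after withdrawal. Its dDAVP arrays were again lowest, with vehicle replicate 1 close above them. It differed by -0.26 ± 0.12 log2 in dDAVP against vehicle and by 0.45 ± 0.12 log2 in withdrawal against dDAVP. Dhx58, which encodes LGP2, a regulator of those sensors, read 8.33 and 8.37 in vehicle, 7.79 and 8.24 in dDAVP, and 8.34 and 8.62 after withdrawal. The gap between its dDAVP arrays was wider than the gap of the upper one to vehicle, and the difference of -0.33 ± 0.17 log2 against vehicle was -0.11 without dDAVP replicate 1. Withdrawal against dDAVP differed by 0.46 ± 0.17 log2, and by 0.24 without that same array.

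Zbp1, a sensor of left-handed nucleic acid that can start cell death, had replicates close together in every group. It read 7.16 and 7.06 in vehicle, 6.60 and 6.72 in dDAVP, and 7.08 and 7.11 after withdrawal. The dDAVP arrays lay clear of the 4 others, which were close together. All its readings fell within the range of the proximal tubule markers (6.21 to 7.64 log2). Its differences of -0.45 ± 0.10 and 0.44 ± 0.10 log2 were -0.28 and 0.23 after cyclic loess, so they were smaller once the shift between arrays at its intensity was removed. Eif2ak2, the kinase PKR that halts translation on double-stranded RNA, read 10.62 and 10.61 in vehicle, 10.43 and 10.57 in dDAVP, and 10.46 and 10.84 after withdrawal. Its groups overlapped between dDAVP and withdrawal, and its differences of -0.12 ± 0.14 and 0.15 ± 0.14 log2 were within 1.5 times their standard errors.

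Among the transcription factors, Irf1 and Irf7 followed the sensors, while Irf8, Irf9 and Stat2 lay closer together. Irf1, an early interferon gamma target that drives antigen presentation genes, read 8.70 and 8.85 in vehicle, 8.21 and 8.33 in dDAVP, and 8.70 and 9.0 after withdrawal. Its dDAVP arrays were the lowest of the 6 by a gap larger than that between any 2 arrays of a group. The differences were -0.51 ± 0.13 log2 for dDAVP against vehicle and 0.58 ± 0.13 log2 for withdrawal against dDAVP, and -0.44 and 0.52 after cyclic loess.

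Irf7, the amplifier of type I interferon, read 10.95 and 11.19 in vehicle, 10.67 and 10.83 in dDAVP, and 11.13 and 11.45 after withdrawal. Its dDAVP arrays were lowest, and the vehicle and withdrawal arrays overlapped. It differed by -0.32 ± 0.15 log2 in dDAVP against vehicle, and by -0.20 without vehicle replicate 2. Withdrawal against dDAVP differed by 0.54 ± 0.15 log2.

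Stat2, a subunit of ISGF3, read 9.06 and 9.25 in vehicle, 8.86 and 9.14 in dDAVP, and 9.21 and 9.41 after withdrawal. The dDAVP and vehicle arrays overlapped, and the differences were -0.15 ± 0.14 and 0.31 ± 0.14 log2. Irf9, the DNA-binding subunit of ISGF3, read 10.05 and 9.99 in vehicle, 9.80 and 10.06 in dDAVP, and 9.89 and 9.90 after withdrawal. dDAVP replicate 2 was the highest of its 6 arrays, and Irf9 was the one gene of the 34 whose mean was lower in withdrawal than in dDAVP (-0.03 ± 0.11 log2). Its difference between dDAVP and vehicle of -0.09 ± 0.11 log2 was 0.03 once each array's median was subtracted, and -0.06 after cyclic loess.

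Irf8, a factor of myeloid cells, read 7.47 and 7.47 in vehicle, 7.25 and 7.44 in dDAVP, and 7.64 and 7.45 after withdrawal. These readings fell within the range of the proximal tubule markers (6.21 to 7.64 log2). The highest array of Irf8 was withdrawal replicate 1, unlike Irf1, Irf7 and Stat2, and the other arrays except dDAVP replicate 1 were almost level. The difference of -0.12 ± 0.11 log2 in dDAVP against vehicle turned to 0.04 after cyclic loess, and that of 0.20 ± 0.11 log2 in withdrawal against dDAVP was 0.02.

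Among the effectors, 3 arrangements are described. In Oasl, Slfn9, Usp18, Oas2 and Oas3 both withdrawal arrays stood above all others. These were 5 of the 34 genes, or 14.7% of the list, the same share as among all genes (14.7%). After cyclic loess this order was seen in 8 of the 34 and in 7.79% of all genes. In Ifit3, Isg20, Mx1 and Isg15, withdrawal replicate 2 stood far above withdrawal replicate 1. In Ifi27, Ifi44 and Ifi35 the group means hardly differed.

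Oasl, which encodes an OAS-like protein, read 8.80 and 9.33 in vehicle, 8.65 and 8.77 in dDAVP, and 9.60 and 9.65 after withdrawal. The withdrawal arrays were close together and highest, whereas vehicle replicate 1 lay just above the dDAVP arrays. Withdrawal against dDAVP differed by 0.91 ± 0.18 log2 (1.88-fold). dDAVP against vehicle differed by -0.35 ± 0.18 log2, which was -0.09 without vehicle replicate 2 and -0.62 without vehicle replicate 1. Withdrawal against vehicle differed by 0.56 ± 0.18 log2, and by 0.29 without vehicle replicate 1.

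Slfn9, a schlafen family member, read 9.22 and 9.54 in vehicle, 9.20 and 8.90 in dDAVP, and 9.80 and 10.03 after withdrawal. Its withdrawal arrays were again both highest, and vehicle replicate 1 was within 0.02 log2 of dDAVP replicate 1. The difference was 0.87 ± 0.16 log2 (1.82-fold) for withdrawal against dDAVP, 0.54 ± 0.16 log2 for withdrawal against vehicle and -0.33 ± 0.16 log2 for dDAVP against vehicle. The last was -0.17 without vehicle replicate 2 and -0.18 without dDAVP replicate 2. Usp18, the protease that removes ISG15 and damps the interferon receptor, had the same order at smaller size. It read 9.85 and 10.18 in vehicle, 9.79 and 9.67 in dDAVP, and 10.24 and 10.43 after withdrawal, and differed by 0.60 ± 0.14 log2 in withdrawal against dDAVP and -0.28 ± 0.14 log2 in dDAVP against vehicle. The latter was -0.12 without vehicle replicate 2.

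Ifit3, which belongs to the family that binds foreign RNA and blocks its translation, had the widest spread of the list. It read 10.60 and 10.98 in vehicle, 10.31 and 10.21 in dDAVP, and 10.78 and 11.89 after withdrawal. Withdrawal replicate 1 lay within the vehicle range, and withdrawal replicate 2 stood 1.11 log2 above it. The difference of 1.07 ± 0.35 log2 (2.10-fold) for withdrawal against dDAVP was 0.52 without withdrawal replicate 2 and 1.63 without withdrawal replicate 1. dDAVP against vehicle differed by -0.53 ± 0.35 log2, and by -0.34 without vehicle replicate 2.

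Isg20, an exonuclease that degrades single-stranded RNA, read 8.54 and 8.91 in vehicle, 8.45 and 8.40 in dDAVP, and 8.83 and 9.86 after withdrawal. Here too withdrawal replicate 1 lay between the vehicle arrays, and dDAVP was lowest by a small margin. Withdrawal against dDAVP differed by 0.92 ± 0.32 log2, and by 0.41 without withdrawal replicate 2. dDAVP against vehicle differed by -0.30 ± 0.32 log2, and by -0.12 without vehicle replicate 2.

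Mx1, a dynamin-like GTPase that traps viral nucleocapsids, read 9.61 and 9.92 in vehicle, 9.42 and 9.50 in dDAVP, and 9.74 and 10.72 after withdrawal. As in Isg20, the dDAVP arrays were lowest by a small margin and withdrawal replicate 1 lay between the vehicle arrays. Withdrawal against dDAVP differed by 0.77 ± 0.30 log2, and by 0.28 without withdrawal replicate 2. dDAVP against vehicle differed by -0.30 ± 0.30 log2, and by -0.15 without vehicle replicate 2.

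Isg15, the ubiquitin-like modifier, read 11.59 and 11.75 in vehicle, 11.12 and 11.18 in dDAVP, and 11.61 and 12.36 after withdrawal. Its dDAVP arrays were the lowest by more than 0.4 log2, a wider margin than in Isg20 or Mx1. The difference was -0.52 ± 0.24 log2 (1.43-fold lower) in dDAVP against vehicle. It was 0.84 ± 0.24 log2 in withdrawal against dDAVP, and 0.46 without withdrawal replicate 2.

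Ifit2, a further member of the IFIT family, read 11.04 and 11.20 in vehicle, 10.75 and 10.74 in dDAVP, and 11.07 and 11.58 after withdrawal. Cmpk2, a mitochondrial nucleotide kinase, read 9.23 and 9.27 in vehicle, 8.75 and 9.08 in dDAVP, and 9.25 and 9.83 after withdrawal. In both genes the dDAVP arrays were lowest and withdrawal replicate 1 lay with vehicle. Their differences in withdrawal against dDAVP were 0.58 ± 0.17 and 0.63 ± 0.21 log2, and 0.33 and 0.34 without withdrawal replicate 2. In dDAVP against vehicle they were -0.38 ± 0.17 and -0.34 ± 0.21 log2.

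Gbp5, a guanylate-binding protein of the interferon gamma response that promotes the inflammasome, was highest in vehicle. It read 9.87 and 9.51 in vehicle, 8.98 and 9.27 in dDAVP, and 9.36 and 9.63 after withdrawal. The dDAVP arrays were lowest and the withdrawal arrays did not reach vehicle replicate 1. dDAVP against vehicle differed by -0.57 ± 0.17 log2 (1.49-fold lower), and withdrawal against dDAVP by 0.38 ± 0.17 log2, which was 0.24 without withdrawal replicate 2. Gbp2, of the same family, differed by -0.50 ± 0.20 and 0.54 ± 0.20 log2.

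Ifi27, a mitochondrial protein encoded by a gene that has 2 ISRE cores in its window, hardly varied. It read 12.66 and 12.51 in vehicle, 12.46 and 12.64 in dDAVP, and 12.57 and 12.62 after withdrawal, with all 3 groups overlapping. Its differences were -0.03 ± 0.11 and 0.04 ± 0.11 log2. Their signs turned (0.09 and -0.08) once array medians were subtracted, but not after cyclic loess (-0.01 and 0.02). Ifi44, a cytoplasmic protein of the response, read 10.68 and 10.88 in vehicle, 10.69 and 10.75 in dDAVP, and 10.75 and 11.04 after withdrawal. Its dDAVP arrays lay between the vehicle arrays, and the differences were -0.06 ± 0.13 and 0.18 ± 0.13 log2. The first turned to 0.06 once array medians were subtracted, but was -0.04 after cyclic loess. Ifi35 read 9.26 and 9.46 in vehicle, 8.88 and 9.49 in dDAVP, and 9.24 and 9.39 after withdrawal. The lowest and the highest of its arrays were the 2 dDAVP arrays, so its differences of -0.17 ± 0.21 and 0.13 ± 0.21 log2 turned to 0.13 and -0.18 without dDAVP replicate 1.

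The effectors not given array by array were Mx2, Oas1a, Oas2, Oas3, Rsad2, Gbp2, Bst2 and Herc6. They differed by -0.50 to -0.18 log2 in dDAVP against vehicle and by 0.09 to 0.56 log2 in withdrawal against dDAVP. Oas2 and Oas3 are synthases of the 2-5A signal that activates RNase L after viral RNA is bound. Both read 6.93 to 7.45 log2, within the range of the proximal tubule markers (6.21 to 7.64). Their differences in dDAVP against vehicle were -0.28 ± 0.10 and -0.18 ± 0.09 log2, and -0.12 and -0.02 after cyclic loess. Bst2 (tetherin), which holds budding virus at the cell surface, differed by 0.09 ± 0.19 log2 in withdrawal against dDAVP, and by -0.19 without dDAVP replicate 1. Rsad2 (viperin), which makes a chain-terminating nucleotide, differed by 0.56 ± 0.18 log2.

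The immunoproteasome subunits replace the standard catalytic subunits under interferon gamma and alter which peptides are made for antigen presentation. None of the 3 subunits had both dDAVP arrays below all 4 others, as 15 of 21 effectors and 33.6% of all genes had. After cyclic loess this was so in 0 of 3, 13 of 21 and 8.21%. Against vehicle alone, both dDAVP arrays were lower in 2 of 3, Psmb8 and Psmb9. This held in 16 of 21 effectors and 40.6% of all genes. After cyclic loess it held in 1 of 3, 14 of 21 and 14.8%. Psmb8 read 10.60 and 10.50 in vehicle, 9.92 and 10.30 in dDAVP, and 10.28 and 10.84 after withdrawal. Psmb9 read 10.70 and 10.50 in vehicle, 10.12 and 10.46 in dDAVP, and 10.37 and 10.61 after withdrawal. Psmb10 read 11.33 and 11.03 in vehicle, 10.75 and 11.13 in dDAVP, and 10.97 and 11.30 after withdrawal. In all 3 subunits dDAVP replicate 1 was the lowest of the 6 arrays, dDAVP replicate 2 overlapped the withdrawal arrays, and vehicle replicate 1 was above vehicle replicate 2.

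The subunits differed in dDAVP against vehicle by -0.44 ± 0.21 (Psmb8), -0.31 ± 0.16 (Psmb9) and -0.24 ± 0.19 log2 (Psmb10). Without dDAVP replicate 1 these were -0.25, -0.14 and -0.05 log2. In withdrawal against dDAVP they differed by 0.44 ± 0.21, 0.20 ± 0.16 and 0.20 ± 0.19 log2, and by 0.25, 0.03 and 0.01 without that array. Their standard counterparts Psmb5, Psmb6 and Psmb7 differed by -0.06 ± 0.11, -0.25 ± 0.18 and -0.24 ± 0.09 log2 in dDAVP against vehicle, and by 0.13 ± 0.11, 0.41 ± 0.18 and 0.18 ± 0.09 log2 in withdrawal against dDAVP. The difference between both kinds of subunit was not tested.

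**Figure D3:**
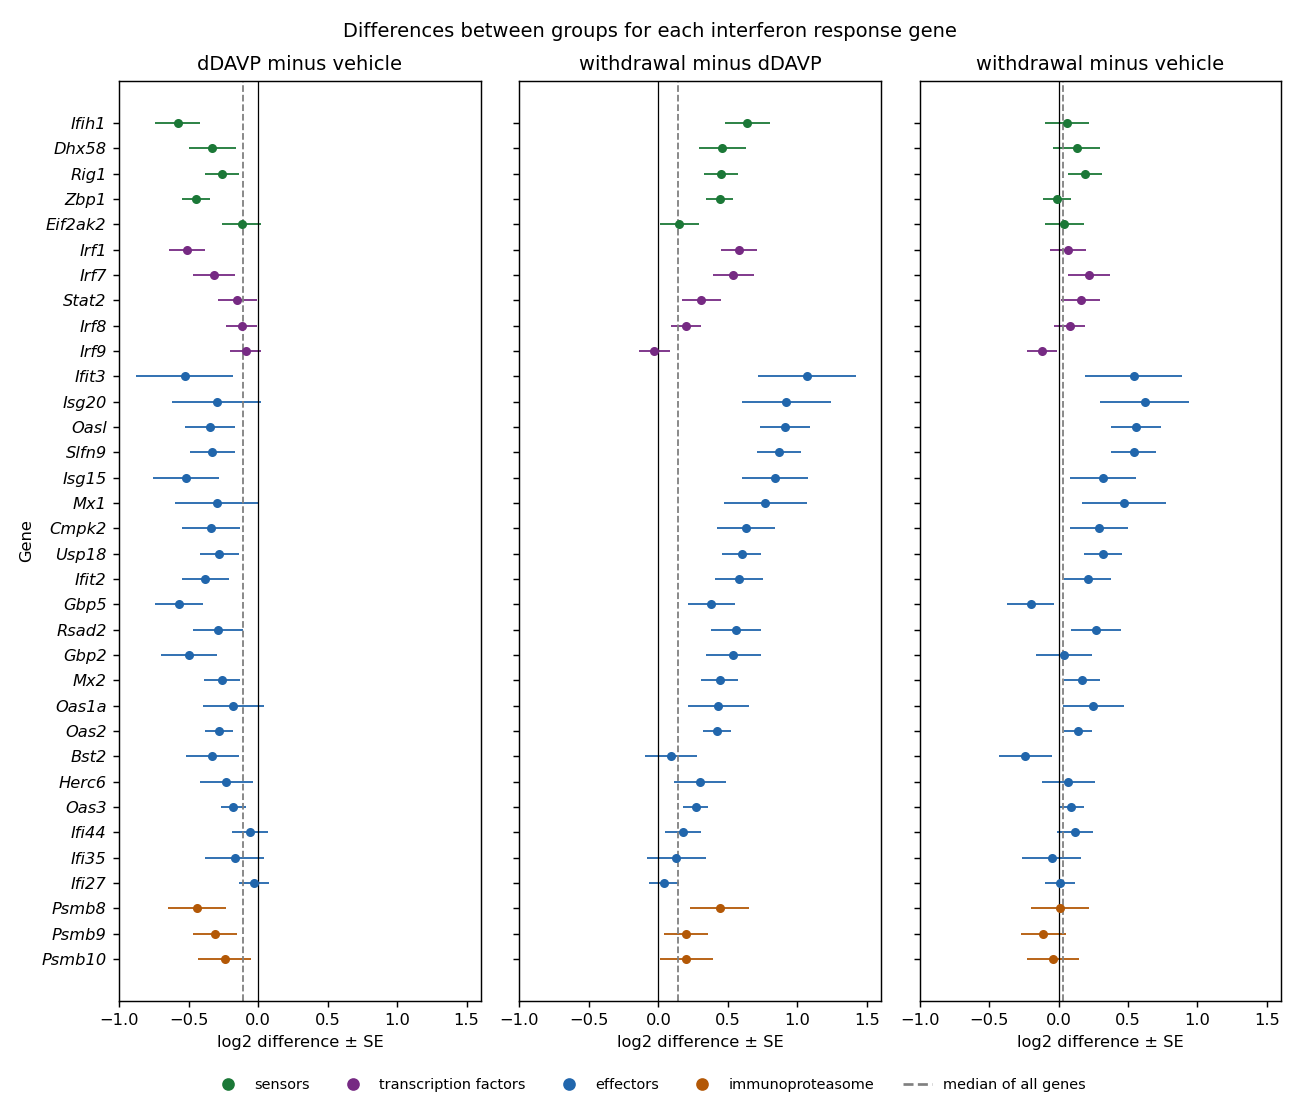
Log2 difference ± SE (limma, n = 2 arrays a group) of each measured interferon response gene in the 3 comparisons, coloured by role, with the median of all genes as a dashed line. All 34 points lie below 0 in dDAVP minus vehicle and 33 lie above 0 in withdrawal minus dDAVP, while in withdrawal minus vehicle 27 lie above 0 and 7 below it.

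In dDAVP against vehicle, all 34 genes had a difference below 0, as did 77.9% of all genes, with a median of -0.30 log2 against -0.11 for all genes. After cyclic loess 33 of the 34 were below 0, against 50.2% of all genes, with a median of -0.26 log2 against 0 for all genes. With array medians subtracted the median was -0.19 log2. By role the deposited medians were -0.33 for sensors, -0.15 for transcription factors, -0.30 for effectors and -0.31 for the immunoproteasome. At an unadjusted p under 0.05, 6 genes were lower in dDAVP (Ifih1, Zbp1, Irf1, Oas2, Gbp2 and Gbp5), which is 17.6% of the list against 6.85% of all genes, and after cyclic loess 4 were lower against 1.47% of all. That count on the deposited scale moved when single arrays were left out, also withdrawal arrays, which enter through the shared estimate of the spread. The share of all genes in those settings is not given. The dDAVP arrays lay wholly below the vehicle arrays in 26 of the 34 genes, against 40.6% of all genes, and after cyclic loess in 21 against 14.8%. dDAVP replicate 1 was the lowest of the 6 arrays in 26 genes, against 45.3% of all genes, and after cyclic loess in 25 against 19.2%.

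In withdrawal against dDAVP, 33 of the 34 genes were above 0, as were 74.9% of all genes, with a median of 0.44 log2 against 0.14 for all genes. After cyclic loess 33 were above 0, against 50.9% of all genes, and the median was 0.42 log2. The effectors had the highest median by role at 0.54 log2, followed by sensors at 0.45, transcription factors at 0.31 and the immunoproteasome at 0.20. At an unadjusted p under 0.05, 20 genes (58.8% of the list) were higher after withdrawal against 17.3% of all genes, and after cyclic loess 15 against 3.19%. That count of 20 was lower without withdrawal replicate 2, a setting for which the share of all genes is not given. A difference of at least 1.5-fold was measured in 9 genes, against 1.5% of all genes, and after cyclic loess also in 9, against 0.995% of all. They were Ifih1 and the effectors Ifit3, Mx1, Oasl, Isg15, Isg20, Usp18, Cmpk2 and Slfn9. The withdrawal arrays lay wholly above the dDAVP arrays in 25 genes, against 49.6% of all genes, and after cyclic loess in 24 against 20.3%.

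In withdrawal against vehicle most genes lay above 0, but the direction of the median depended on withdrawal replicate 2. The median was 0.12 log2 against 0.03 for all genes, with 27 genes above 0 (59.5% of all genes were) and 7 below it (40.5% of all genes were). Without withdrawal replicate 2 the median was -0.03 log2, and without withdrawal replicate 1 it was 0.28. At an unadjusted p under 0.05, Oasl and Slfn9 were higher than in vehicle, 2 of 34 genes against 0.642% of all genes. That count depended on single vehicle and withdrawal arrays. The share of all genes in those settings is not given, so its movement cannot be read as particular to the list. Both withdrawal arrays lay above the vehicle arrays in 5 genes, against 17.6% of all genes. Both lay below them in 2 genes, Irf9 and Bst2, against 13.1%. A difference of at least 1.5-fold was measured in 1 gene, Isg20, against 0.649% of all genes. After cyclic loess, 27 genes were above 0 and 7 below it (51.4% and 48.6% of all genes), 3 were higher at an unadjusted p under 0.05 (0.819% of all), and 1 was at least 1.5-fold higher (0.656% of all). The withdrawal arrays then lay wholly above vehicle in 8 genes (16.1% of all) and wholly below it in 3 (16% of all).

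**Figure D4:**
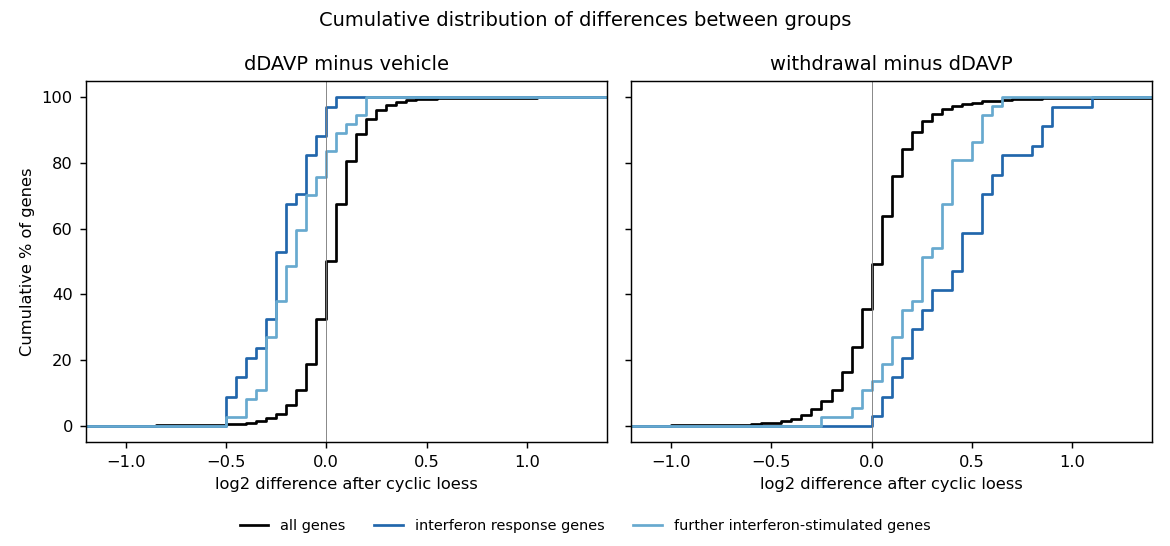
Cumulative percentage of genes (y axis) with a log2 difference up to the value on the x axis, after cyclic loess, for all 14168 genes, the 34 interferon response genes and 37 further interferon-stimulated genes. The curve of the 34 genes lies to the left of all genes in dDAVP minus vehicle (medians -0.26 and 0) and to the right in withdrawal minus dDAVP (medians 0.42 and 0).

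Without vehicle replicate 1 and dDAVP replicate 2, the arrays that stood apart in proliferation genes, the median of the list was -0.43 log2 in dDAVP against vehicle (-0.11 over all genes) and 0.53 log2 in withdrawal against dDAVP (0.17 over all genes). All 34 genes were then below 0 in the first comparison, against 77.1% of all genes, and above 0 in the second, against 76.5%. At an unadjusted p under 0.05, 7 genes were lower in dDAVP (6.25% of all genes) and 16 higher after withdrawal (16.3% of all). Both withdrawal arrays lay above the remaining dDAVP array in 34 genes, against 66.7% of all genes, and that array lay below the other 3 in 34 genes, against 62% of all. The 5 proliferation genes themselves differed to the same side as the list. Their median was -0.38 log2 in dDAVP against vehicle and 1.35 log2 in withdrawal against dDAVP, and -0.43 and 0.64 log2 without those 2 arrays, with 5 of 5 genes to the same side in each. Their part in the levels of the interferon response genes was not tested.

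Over the whole list, the median gap between replicates was widest in the withdrawal group. Withdrawal replicate 2 was above replicate 1 in 32 of 34 genes, as it was in 52.9% of all genes (30 against 49.7% after cyclic loess), with a median gap of 0.28 log2 and a range of -0.20 to 1.11 log2. In dDAVP the median gap between replicates 2 and 1 was 0.14 log2, with replicate 2 higher in 27 of 34 genes (61.1% of all genes), and in vehicle it was 0.11 log2, with replicate 2 higher in 22 (42% of all). By role this order did not hold for the immunoproteasome, where the median gap was 0.38 log2 in dDAVP and 0.32 log2 in withdrawal, and it was slight for the transcription factors (0.21 log2 in withdrawal, 0.19 in dDAVP and 0.16 in vehicle). Withdrawal replicate 2 was the highest of the 6 arrays in 24 genes, against 28.1% of all genes, and after cyclic loess in 24 against 20.8%. It was over 0.5 log2 above replicate 1 in 11 genes (32.4% of the list), against 2.25% of all genes, and after cyclic loess in 8 against 1.98%. The 11 genes were Ifit2, Ifit3, Mx1, Oas1a, Isg15, Isg20, Rsad2, Cmpk2, Gbp2 and Herc6 among the effectors and Psmb8 of the immunoproteasome. No sensor or transcription factor was among them. Summed over the 34 genes, the intensity was 45458 and 46146 in vehicle, 35312 and 40292 in dDAVP, and 43760 and 56873 after withdrawal. The sum of withdrawal replicate 1 was thus just below both vehicle arrays, and only that of withdrawal replicate 2 was above them.

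**Figure D5:**
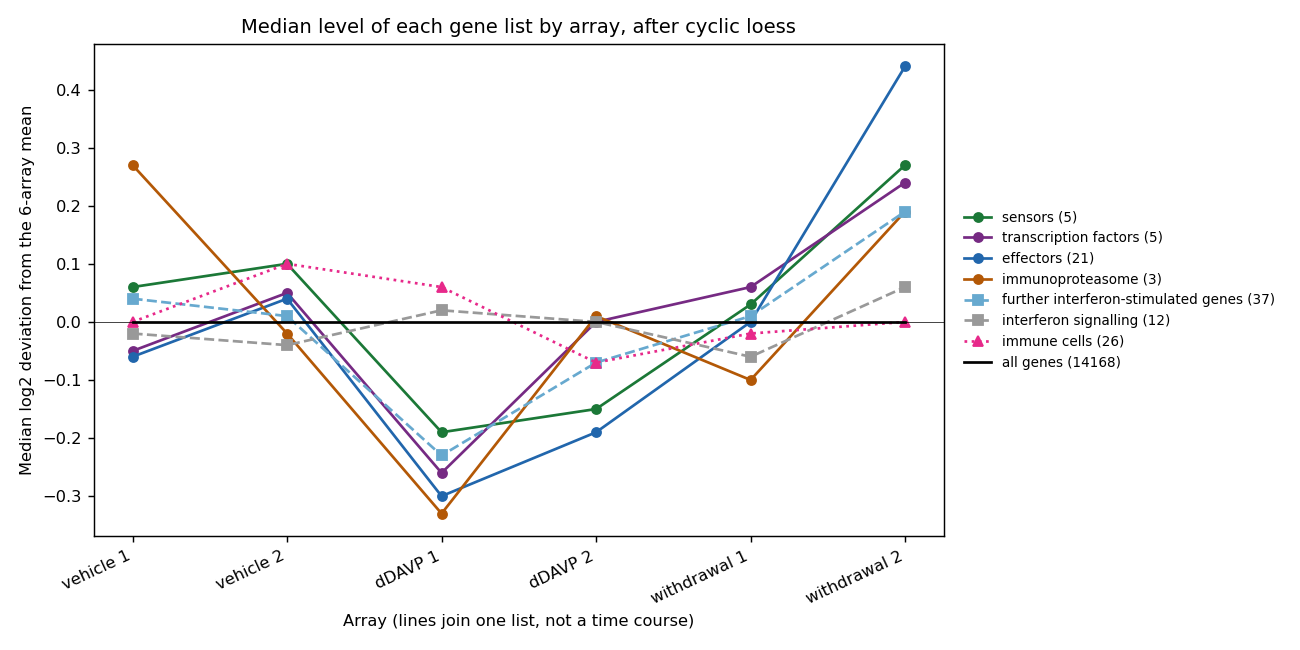
Median deviation of each gene list from its genes' means over the 6 arrays, after cyclic loess, in log2 units for each array, with the number of genes in brackets. Effectors range from -0.30 on dDAVP replicate 1 to 0.44 on withdrawal replicate 2, whereas immune cell markers and interferon signalling genes stay between -0.07 and 0.10.

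Other genes of the pathway were described from lists named by function. Among the interferons and their receptors, all 5 measured interferons (Ifna4, Ifna5, Ifnb1, Ifnk and Ifng) had both dDAVP arrays lowest as deposited. None of the 4 measured receptor chains did, and 33.6% of all genes did. The interferons read only 6.16 to 7.49 log2, near the range of the proximal tubule markers (6.21 to 7.64). After cyclic loess they differed by -0.10 to 0.01 log2 in dDAVP against vehicle. Over the 9 measured of 16 listed, the median difference was -0.15 log2 in dDAVP against vehicle and 0.15 log2 in withdrawal against dDAVP, and -0.04 and -0.01 after cyclic loess. None passed the test, in either direction. Ifnb1, the type I interferon made by most cells, read 7.08 and 7.06 in vehicle, 6.83 and 6.89 in dDAVP, and 7.13 and 7.34 after withdrawal. Its difference of 0.38 ± 0.10 log2 in withdrawal against dDAVP was 0.17 after cyclic loess. Ifna4 and Ifna5 differed by 0.29 ± 0.11 log2 each, and by 0.08 and 0.09 after cyclic loess, and Ifnk and Ifng by 0.12 ± 0.09 and 0.20 ± 0.10 log2, and by -0.10 and -0.01 after it.

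Ifngr1, the ligand-binding chain of the interferon gamma receptor, ran opposite to the response genes. It read 10.16 and 10.28 in vehicle, 10.43 and 10.44 in dDAVP, and 10.11 and 10.10 after withdrawal. Both dDAVP arrays were its highest, as in 3.14% of all genes (8.6% after cyclic loess), with differences of 0.21 ± 0.09 and -0.33 ± 0.09 log2, and 0.24 and -0.34 after cyclic loess. Ifnar1, a chain of the type I receptor, read 9.52 and 9.23 in vehicle, 9.03 and 9.56 in dDAVP, and 9.11 and 8.91 after withdrawal. Its dDAVP arrays spanned nearly all others, and withdrawal against vehicle differed by -0.37 ± 0.20 log2. Ifngr2 and Il10rb differed by -0.06 ± 0.11 and -0.14 ± 0.14 log2 in dDAVP against vehicle.

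Interferon signalling genes, the kinases, STATs and their inhibitors, had medians near those of all genes. Over 12 measured of 15 listed, the median was -0.09 log2 in dDAVP against vehicle and 0.10 log2 in withdrawal against dDAVP, and 0.02 in each after cyclic loess, and none passed. Socs3, a feedback inhibitor of JAK kinases, read 6.85 and 6.82 in vehicle, 6.67 and 6.57 in dDAVP, and 6.84 and 7.21 after withdrawal, a difference of 0.40 ± 0.14 log2 from dDAVP that was 0.19 after cyclic loess. Socs1, a related inhibitor, differed by 0.29 ± 0.10 log2, and by 0.08 after it. Pias1, an inhibitor of interferon signalling, was lower after withdrawal than in vehicle by a difference of -0.30 ± 0.10 log2, and Irf5 differed by 0.21 ± 0.09 log2 between withdrawal and dDAVP, which was 0.01 after cyclic loess.

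The genes that carry signals from the sensors to the interferon promoters lay close to all genes as well. Over 14 measured of 19 listed, the medians were -0.14 and 0.16 log2, and -0.03 and 0.02 after cyclic loess, and none passed. Tlr3, the endosomal sensor of double-stranded RNA, differed by -0.35 ± 0.13 and 0.32 ± 0.13 log2, and by -0.30 and 0.30 after cyclic loess. Tlr7, the endosomal sensor of single-stranded RNA, differed by -0.41 ± 0.15 and 0.30 ± 0.15 log2, and by -0.25 and 0.12 after it. Irak4, a kinase below Tlr7, differed by -0.30 ± 0.11 log2 in dDAVP against vehicle, and Traf3 by 0.24 ± 0.09 log2 in withdrawal against dDAVP, which was 0.03 after cyclic loess.

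Further interferon-stimulated genes outside the list lay to the same side as its members, at a smaller size. Of 37 measured of 56 listed, 34 were below 0 in dDAVP against vehicle and 33 above 0 in withdrawal against dDAVP, with medians of -0.24 and 0.33 log2, and -0.20 and 0.24 after cyclic loess. Over all genes 77.9% were below 0 and 74.9% above 0 in those comparisons. None of the 37 passed, and at an unadjusted p under 0.05 there were 6 lower in the first (6.85% of all genes) and 13 higher in the second (17.3% of all). Rtp4, a chaperone that also acts as an antiviral protein, read 10.94 and 10.86 in vehicle, 10.39 and 10.51 in dDAVP, and 10.83 and 11.25 after withdrawal. Its dDAVP arrays were lowest, with differences of -0.45 ± 0.15 and 0.60 ± 0.15 log2. Oas1b, Parp9 and Epsti1 differed by -0.43 ± 0.15, -0.32 ± 0.11 and -0.42 ± 0.13 log2 in dDAVP against vehicle, and by 0.59 ± 0.15, 0.49 ± 0.11 and 0.53 ± 0.13 log2 in withdrawal against dDAVP. After cyclic loess these were -0.34, -0.29 and -0.25 log2, and 0.51, 0.47 and 0.33 log2. Epsti1 read 6.55 to 7.30 log2, within the range of the proximal tubule markers (6.21 to 7.64).

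Antigen presentation genes and chemokines induced by interferon had a median of -0.10 log2 in dDAVP against vehicle and 0.16 log2 in withdrawal against dDAVP over 11 genes, and -0.02 and 0.03 after cyclic loess, and none passed. Within them the chemokines Cxcl10 and Cxcl11, which attract T cells, had the arrangement of Ifit3. Cxcl10 read 11.23 and 11.20 in vehicle, 10.92 and 10.69 in dDAVP, and 11.27 and 12 after withdrawal. Cxcl11 read 10.59 and 10.30 in vehicle, 9.83 and 10.03 in dDAVP, and 10.05 and 11.50 after withdrawal. Both were lowest in dDAVP replicates and highest in withdrawal replicate 2, while withdrawal replicate 1 lay near vehicle for Cxcl10 and near dDAVP for Cxcl11. The differences in withdrawal against dDAVP were 0.83 ± 0.24 and 0.85 ± 0.43 log2. Cxcl9 differed by 0.20 ± 0.15 log2, and Ciita, the master regulator of MHC class II genes, by 0.28 ± 0.10 log2, which was 0.07 after cyclic loess.

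Markers of immune cells, which carry many of these transcripts, were measured on the same arrays. Of 31 markers 26 were measured, with log2 intensities from 5.96 to 11.63, and no marker is at 0 since array values have no zero. Their summed intensity was 9423 and 11446 in vehicle, 11230 and 8888 in dDAVP, and 10244 and 10093 after withdrawal, so all groups overlapped. The 2 lowest sums were those of vehicle replicate 1 and dDAVP replicate 2, the arrays that stood apart in proliferation genes. Without these, the vehicle and dDAVP sums lay above both withdrawal sums. The markers' median difference was -0.17 log2 in dDAVP against vehicle and 0.13 log2 in withdrawal against dDAVP, and -0.07 and -0.03 after cyclic loess. Without both arrays that stood apart it was -0.08 and 0.06 log2, against -0.11 and 0.17 over all genes. Ptprc, the common leukocyte antigen CD45, read 8.66 and 8.23 in vehicle, 8.28 and 8.20 in dDAVP, and 8.24 and 8.16 after withdrawal, and its dDAVP and withdrawal arrays overlapped. In withdrawal against dDAVP 16 markers were above 0 and 10 below it, while 74.9% of all genes were above 0. After cyclic loess 13 markers were above 0 and 13 below it, while 50.9% of all genes were above 0. At an unadjusted p under 0.05, 3 markers were higher in withdrawal than in dDAVP, Xcr1, S100a9 and Mpo, against 17.3% of all genes, and 2 were lower in dDAVP than in vehicle, Itgam and Cd163, against 6.85%. In withdrawal against vehicle 3 were lower, Cd3e, Cd8a and Laptm5, against 1.14% of all genes, and 1 was higher, S100a9, against 0.642%. The part of immune cells in the levels of the interferon response genes was not tested.

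The genes outside the list whose arrays ran most like its median were found by the root mean squared distance over the 6 arrays, after cyclic loess, among 2838 genes with a comparable range. The nearest were Ifi44l (0.022 log2), Pnpt1 (0.036), Ltv1 (0.041), Tfpi2 (0.045), Casp1 (0.049), Slfn2 (0.053), Spag7 (0.054), Mdp1 (0.055), Ssbp1 (0.055), Trmt11 (0.056), Rcn1 (0.057) and Dnajc12 (0.057). Of these 12 genes, Ifi44l, Pnpt1, Casp1 and Slfn2 stand in the lists of further interferon-stimulated genes. Of the nearest 100 genes 9 stand in a pathway list, against 1.09% of the genes ranked. Ifi44l read 10.69 and 10.85 in vehicle, 10.44 and 10.56 in dDAVP, and 10.73 and 11.07 after withdrawal, lowest in dDAVP and highest on withdrawal replicate 2 like most of the list.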

How the data were processed

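Total RNA of 6 inner medulla samples was hybridised to Affymetrix whole-transcript arrays, 1 array per sample, after Trizol extraction, per the labels' protocols. The authors deposited 1 intensity per probe set and array. Probes were summarised by RMA, as per the submitters' processing notes. The version of RMA, like the build, is not given in the sources used here. Intensities as deposited are linear (30.2 to 10778.7), so their log2 was taken. RMA as usually run equalises arrays, which would reduce a shift common to most genes. The deposited array medians still ran from 156.1 to 182.1, so how far these values were equalised is not known. The number of arrays limits the precision. Of 28524 probe sets, 14947 carried 1 gene symbol, 318 several and 13259 are unnamed here. Entrez numbers of 14916 matched RefSeq (GRCr8), which changed 0 symbols.

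For each of 14168 genes (509 with several probe sets) the probe set with the highest mean was used. limma 3.58.1 in R 4.3.3 (lmFit, eBayes, 3 groups, two-sided) was run on all 6 arrays, with Benjamini-Hochberg adjustment over all genes and a threshold of 0.05. The script was tested on simulated data. Values of all arrays are given for sensors, transcription factors, immunoproteasome subunits and the 10 effectors with the largest and 3 with the smallest range of group means. Of each pathway list the 4 genes with the smallest p are named, and all measured interferons and receptors. Immune markers were named after seeing their values. The members, the lists and the motifs were chosen with earlier results of these data known. The replicate numbers did not pair the samples.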

Additional observations from a re-analysis of the deposited data

How the results depend on the processing

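Under 18 alternative settings, 2 of them (crossed pairing, and cyclic loess without both arrays that stand apart) chosen after seeing the data, no gene of the list passed in any comparison, and the smallest adjusted p (limma) was 0.412 between dDAVP and vehicle, 0.142 between dDAVP and withdrawal, and 0.767 between vehicle and withdrawal. The median difference of the list kept its direction in the first 2 comparisons under all of them. Leaving out 1 array at a time gave medians of -0.37 to -0.21, 0.30 to 0.59 and -0.03 to 0.28 log2. The counts at an unadjusted p under 0.05 (6 lower, 20 higher and 2 higher) were less stable. For most of the alternative settings, here and above, the share of all genes is not given. A shift in such a count can therefore not be read as particular to the list. For dDAVP against vehicle the count was 10 with only the 4 arrays compared, 10 with crossed pairing and 3 with cyclic loess without both arrays that stand apart, and 2 to 10 without 1 array. For withdrawal against dDAVP it was 13 with cyclic loess without both arrays that stand apart and 9 to 23 without 1 array. For withdrawal against vehicle it was 1 without both arrays that stand apart, 4 with crossed pairing and 0 to 9 without 1 array. Genes with both dDAVP arrays below all others numbered 22 (33.6% of all genes). With array medians subtracted they numbered 14, for which the share of all genes is not given. Where a dDAVP array is left out, the count is of the 1 remaining array, an easier criterion. It was 34 without both arrays that stand apart (62% of all genes) and 33 without dDAVP replicate 2 (56.3% of all), and without 1 array it ranged from 22 to 33. The cause of the other shifts was not tested. Replicate numbers were shared by the groups. Deviations of same-numbered arrays correlated over genes at -0.63 (vehicle and dDAVP), -0.1 (dDAVP and withdrawal) and -0.02 (vehicle and withdrawal), so equal numbers did not pair. The value of -0.63 means that vehicle replicate 1 differed from vehicle replicate 2 much as dDAVP replicate 2 differed from dDAVP replicate 1. Its source was not tested. With the replicate number as a block the counts were 6, 21 and 2 and none passed. Detection above background is unknown for every probe set.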
